A study of Mus musculus with 30 samples.

Results

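CD81+ fibroblasts (FB) and CD90+ FB sorted from the colon were compared by bulk RNA sequencing, 3 libraries of each, which are 6 of the 30 libraries of the study. The study sorted stromal populations from the lamina propria of the small intestine and the colon and sequenced their RNA. The mice were untreated C57BL6/Nrj animals of 8 to 10 weeks, and cells bearing lineage, endothelial, epithelial or strong NCAM staining had been gated out. Among ESAM-1-CD34+ cells, CD81+ FB were taken as CD90- with intermediate PDPN and CD90+ FB as CD90+ with high PDPN, so CD81 itself was not a sorting marker. Fibroblasts around the crypt base supply Wnt ligands, R-spondins and BMP antagonists that sustain epithelial stem cells, whereas fibroblasts nearer the surface supply BMP ligands that promote differentiation. CD81 is a tetraspanin of the cell surface, ACKR4 binds and removes chemokines, and CD90, the product of *Thy1*, is a glycolipid-anchored surface protein.

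Values are CPM for replicates 1, 2 and 3 of each population. Where 3 values stand against 3 others, CD81+ FB come first. Log2 fold changes are CD81+ FB minus CD90+ FB, with standard errors. The 3 marker genes of the comparison separated the libraries. *Cd81* was at 401, 445 and 278 CPM in CD81+ FB and 17.8, 12.1 and 64.5 CPM in CD90+ FB. *Ackr4* was at 355, 641 and 433 CPM in CD81+ FB and 2.73, 18.1 and 37.3 CPM in CD90+ FB. *Thy1* was at 254, 175 and 160.1 CPM in CD90+ FB and 124, 115 and 59.4 CPM in CD81+ FB. For each of the 3 genes the populations did not overlap, with *Cd81* and *Ackr4* high in CD81+ FB and *Thy1* high in CD90+ FB, so the labels matched their markers. *Thy1* RNA was nevertheless counted in all 3 libraries of CD81+ FB, which had been sorted as CD90-. None of the 3 passed the threshold in edgeR's quasi-likelihood test with Benjamini-Hochberg adjustment, although all 6 libraries showed the direction of the label. Log2 fold changes were 3.58 ± 0.63 for *Cd81* (adjusted p 0.0661), 4.63 ± 0.82 for *Ackr4* (0.0661) and -0.98 ± 0.37 for *Thy1* (0.378). Without CD81+ FB replicate 1, *Cd81* (3.55, adjusted p 0.0360) and *Ackr4* (4.81, 0.0292) were called. Without CD90+ FB replicate 3, *Cd81* was called (4.64, 0.0467) and *Ackr4* was not (5.51, 0.128). Neither gene was called without any other single library. The adjusted p rose to 0.307 for *Cd81* without CD90+ FB replicate 1 and to 0.371 for *Ackr4* without CD90+ FB replicate 2.

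The other sorting proteins divided less sharply. *Cd34*, on which both populations were gated, was at 1342, 1047 and 843 against 610.0, 625 and 486 CPM, without overlap. *Pdpn* was at 60.8, 31.1 and 29.7 against 58.6, 58.4 and 64.9 CPM and *Pdgfra* at 995, 1076 and 716 against 544, 799 and 619.9 CPM. Both genes overlapped between the populations. *Ncam1*, whose product at high levels was gated out, was at 541, 428 and 486 against 979, 1130.3 and 1034 CPM, again without overlap. The integrin β1 gene *Itgb1* was at 1137, 501 and 418 against 604, 804 and 849.8 CPM, and the endothelial adhesion gene *Pecam1* at 49.2, 32.8 and 41.2 against 30.1, 42.9 and 47.4 CPM. Both overlapped. The leukocyte gene *Ptprc* was at 7.25, 4.86 and 3.31 against 7.2, 4.89 and 7.93 CPM, the pericyte gene *Mcam* at 0.967, 4.12 and 7.46 against 11.5, 5.13 and 2.37 CPM, and the neural adhesion gene *L1cam* at 2.18, 8.36 and 5.09 against 5.41, 3.68 and 5.12 CPM. These 3 overlapped as well and were low. Of 13 genes tested of sorting proteins and label markers, *Cd81* and *Ackr4* included, edgeR called 0 (5 at an unadjusted p under 0.05, 2 by DESeq2, 2 by limma), and *Esam* and *Epcam* had too few counts for a test.

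The CD81+ FB libraries were less alike than the CD90+ FB libraries. The biological coefficient of variation was 0.689 among the 3 CD81+ FB libraries and 0.402 among the 3 CD90+ FB libraries. Log2 CPM correlated at 0.913 to 0.918 between libraries of CD90+ FB, but at 0.773, 0.806 and 0.844 between libraries of CD81+ FB. Replicates 1 and 3 of CD81+ FB each correlated with every CD90+ FB library (0.807 to 0.817 and 0.862 to 0.870) more closely than with the 2 other CD81+ FB libraries. On the first principal component of the 12 colonic FB libraries (23% of the variance, with 15.8% on the second), CD81+ FB lay at -152, -107 and -40.3 and CD90+ FB at 12.6, 6.28 and 4.49. Colonic Fgfr2+ FB, at 7.82, 17.7 and 9.11, lay beside CD90+ FB. The spread of CD81+ FB on this component depended on the genes used. With the 500 most variable genes, CD81+ FB lay at -39.9, -58.4 and -40.8, apart from CD90+ FB at -6.1, -5.2 and -7.3. Replicate 1 of CD81+ FB also stood apart in 2 genes that were abundant in CD90+ FB. *Adamdec1*, which encodes a disintegrin metalloprotease, was at 2333, 298 and 101 against 2743, 8102 and 3238 CPM, and the matrix gene *Col15a1* was at 1212, 189 and 200.1 against 1777, 1581 and 2116 CPM. For both, replicate 1 came nearest to CD90+ FB. Replicate 3 of CD81+ FB held single genes at levels that no other of the 6 libraries approached. The R-spondin gene *Rspo3* was at 9.51, 41.7 and 4424 against 4.66, 20.3 and 23.1 CPM, the receptor gene *Fgfr3* at 0.564, 0.369 and 685 against 5.36, 5.19 and 1.86 CPM, and the mechanosensitive channel gene *Piezo1* at 113, 139 and 1476 against 139, 91.7 and 73 CPM. All 6 libraries were used, and counts are also given without these libraries.

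**Figure D1:**
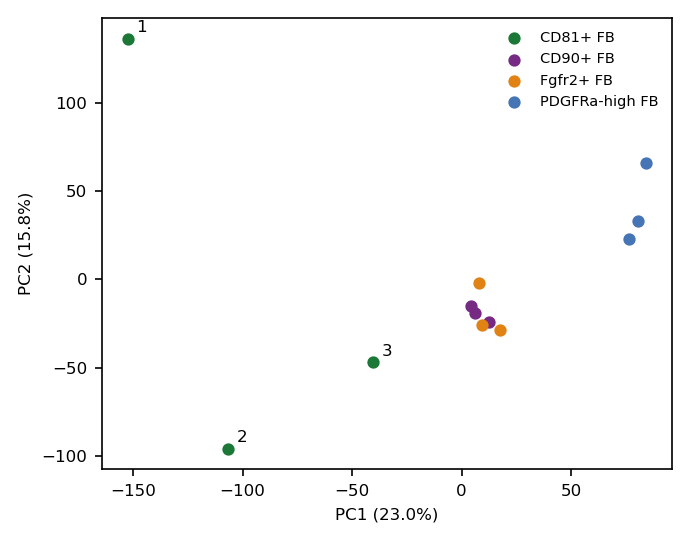
Principal component analysis of log2 CPM in the 12 colonic fibroblast libraries, with the first component on the horizontal and the second on the vertical axis. The 3 numbered CD81+ FB libraries lie apart from one another, whereas the 3 CD90+ FB libraries lie together near the Fgfr2+ FB libraries.

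Of 15156 genes tested, 34 were called (0.224%), at an adjusted p under 0.05 and an absolute log2 fold change above 1.5. Of these, 28 were higher in CD81+ FB (0.185% of genes tested) and 6 higher in CD90+ FB (0.0396%), and 1553 genes had an unadjusted p under 0.05. The 3 libraries of CD81+ FB lay all above the 3 of CD90+ FB for 1091 genes (7.2% of genes tested), and all below for 1482 (9.78%). All 34 called genes were among these. The median log2 fold change of all genes tested was 0.06. Upper-quartile scaling moved that median by -0.19 and called 33 genes higher in CD81+ FB and 21 higher in CD90+ FB. The number called depended on single libraries. It was 224 without replicate 1 of CD81+ FB, 8 without replicate 2 and 21 without replicate 3. It was 0, 0 and 6 without replicates 1, 2 and 3 of CD90+ FB, where 979, 952 and 947 genes had an unadjusted p under 0.05. Without replicate 1 of CD81+ FB all 34 genes were called again, 117 genes being higher in CD81+ FB and 107 higher in CD90+ FB. The tools differed too, with 527 genes called by DESeq2 (289 and 238, 3.48% of genes tested in all) and 148 by limma with library weights (113 and 35, 0.977% in all), a test added after the spread of the CD81+ FB libraries had been seen. These shares, and 1553 of 15156 genes at an unadjusted p under 0.05, are the background for all list counts below. On simulated data with 200 changed genes, DESeq2 called 90 unchanged genes and edgeR 4. DESeq2 recovered 173 of the changed genes there and edgeR 116. The simulated counts had the same spread in both populations, whereas the coefficient of variation was 0.689 in CD81+ FB and 0.402 in CD90+ FB. They therefore cannot tell which of the genes called here are changed. All 34 genes kept their direction without each library and under each alternative fitted to genes. In bulk samples, a lower level from fewer cells with the transcript and one from less RNA per cell cannot be told apart.

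The 12 genes of largest fold change called higher in CD81+ FB are given first. They were chosen at a mean of at least 10 CPM and without overlap, and included products of secretion, signalling and transcription. *Myoc*, which encodes the secreted glycoprotein myocilin, was at 64.5, 17.1 and 12.3 CPM in CD81+ FB and at 0 in all 3 CD90+ FB libraries. It was at least 183-fold higher against a floor of 3 counts per library (adjusted p 0.0331, edgeR quasi-likelihood test with Benjamini-Hochberg adjustment, higher in 3 of 3 libraries), and at least 85.7-fold without CD81+ FB replicate 1. *Efhd1*, which encodes a calcium-binding protein of mitochondria, was at 60.4, 114 and 14.8 CPM in CD81+ FB against 3 counts in CD90+ FB, all in replicate 2. The ratio was 1123, with a 95% counting interval of 384 to 5445 (adjusted p 0.0227). It was 671 without CD81+ FB replicate 2, 676 without CD90+ FB replicate 1, and at least 378 without CD90+ FB replicate 2. *Atp1b1*, the β1 subunit of the sodium-potassium pump, was at 31.6, 45 and 61.7 against 0.0941, 0.181 and 0.064 CPM (log2 fold change 8.57 ± 0.75, adjusted p 0.00817). These 3 genes were thus nearly absent from CD90+ FB. Among secreted factors, *Angptl1*, an angiopoietin-like protein, was at 115, 120.0 and 208 against 0.141, 0.543 and 1.79 CPM (log2 fold change 7.5 ± 0.88, adjusted p 0.0193, and 8.75 without CD90+ FB replicate 3). *Pcolce2*, which enhances the cleavage of procollagen C-propeptides, was at 572, 636 and 308 against 6.54, 8.81 and 30.9 CPM (5.04 ± 0.67, 0.0227, 6.03 without that library and 5.68 with length-scaled counts). The 2 genes were higher in all 3 CD81+ FB libraries, with replicate 3 of CD90+ FB holding the most of that population.

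Receptor genes were led by *Tek*, the receptor tyrosine kinase for angiopoietins and the gene with the lowest p of all genes tested. It was at 334, 323 and 271 against 22, 22.6 and 24.9 CPM (log2 fold change 3.74 ± 0.30, adjusted p 0.00739, and 2.89 with length-scaled counts, edgeR quasi-likelihood test with Benjamini-Hochberg adjustment). The adhesion receptor gene *Adgrg2* was at 72.5, 120.1 and 54 against 1.18, 1.81 and 0.64 CPM (adjusted p 0.0142, log2 fold change 6.08), and its relative *Adgrl2* was at 297, 182 and 121 against 5.69, 9.29 and 9.02 CPM (adjusted p 0.0129, log2 fold change 4.63). Each of the 3 receptor genes was higher in 3 of 3 CD81+ FB libraries. *Ildr2*, a membrane protein with an immunoglobulin-like domain, was at 68.3, 70.9 and 41.4 against 4.66, 4.22 and 4.16 CPM. *Nhsl1*, a regulator of cell protrusions, was at 119, 248 and 153 against 14.1, 11.3 and 9.72 CPM. *Brinp3*, a gene linked to neural differentiation, was at 19.5, 98.9 and 43.5 against 0.612, 1.33 and 1.6 CPM. Their log2 fold changes were 3.79, 3.89 and 5.53, with adjusted p of 0.0218, 0.0143 and 0.0331. The log2 fold change of *Brinp3* was 4.72 without CD81+ FB replicate 2, and that of *Nhsl1* was 3.29 with length-scaled counts. The transcription factor gene *Ebf1* was at 1059, 734 and 665 against 9.65, 26.3 and 52.6 CPM (log2 fold change 4.79 ± 0.61, adjusted p 0.0218, and 5.49 without CD90+ FB replicate 3). Again no library of CD90+ FB reached the lowest of CD81+ FB.

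**Figure D2:**
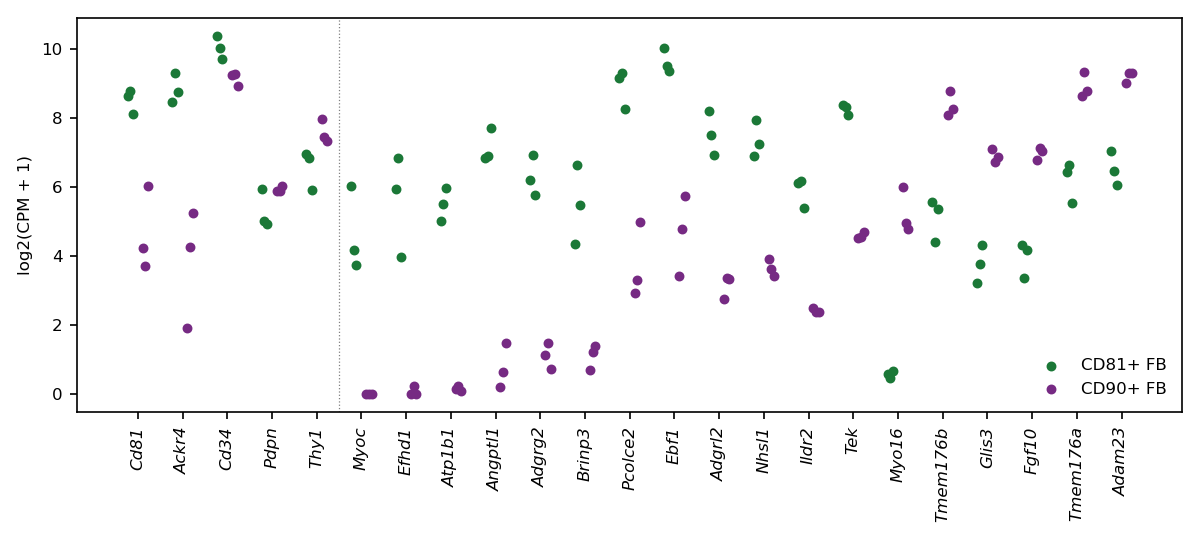
Levels as log2(CPM + 1) in each library of CD81+ FB and CD90+ FB for sorting and label markers (left of the dotted line) and for the called genes of largest fold change in each direction (right). Genes to the right of the line were chosen without overlap between the populations, a condition that all 34 called genes met.

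The 16 other genes called higher in CD81+ FB had log2 fold changes from 1.85 to 3.46, and those outside the gene lists are named after their values were seen. They encoded matrix or its modifiers (*Fndc1*, *Col6a3*, *Col14a1*, *Adamts5*, *Adamtsl3*, *Prss23*) or secreted or guidance factors (*C3*, *Vegfd*, *Sema3d*, *Flrt2*). The others encoded the prolactin receptor (*Prlr*), a leucine-rich membrane protein (*Lrrn4cl*), the enzyme that makes N-glycolylneuraminic acid (*Cmah*), a D-type cyclin (*Ccnd2*) and 2 transcription factors (*Foxp2*, *Fosb*). Some varied little between libraries of CD81+ FB. *Fndc1* was at 4709.9, 4608 and 4539.8 against 929, 1543 and 1349 CPM, *Cmah* at 319, 352 and 368 against 54.8, 48.6 and 45.1 CPM, and *Ccnd2* at 295, 311 and 295 against 62.1, 75.3 and 91.9 CPM. *Prlr* was at 250.5, 291 and 334 against 22.3, 28.2 and 61.5 CPM. *Flrt2*, whose product binds FGF receptors and UNC5 proteins, was at 464, 336 and 232 against 51, 56.8 and 58 CPM. All 5 genes were higher in 3 of 3 CD81+ FB libraries, with log2 fold changes 1.85, 2.81, 1.97, 2.96 and 2.63 in that order. Their adjusted p values were 0.0283, 0.0129, 0.0331, 0.0331 and 0.0218 (edgeR quasi-likelihood test with Benjamini-Hochberg adjustment). With length-scaled counts the log2 fold change of *Ccnd2* was 1.38, below the threshold of 1.5.

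The 6 genes called higher in CD90+ FB were *Myo16*, *Tmem176b*, *Glis3*, *Fgf10*, *Tmem176a* and *Adam23*. *Myo16*, an unconventional myosin, was at 0.484, 0.369 and 0.593 against 62.6, 30.2 and 26.4 CPM (log2 fold change -6.36 ± 0.70, adjusted p 0.0143, edgeR quasi-likelihood test with Benjamini-Hochberg adjustment). *Fgf10*, which encodes a growth factor that acts on epithelial FGFR2b, was at 18.9, 9.28 and 17 against 109, 140.3 and 131 CPM (log2 fold change -3.09 ± 0.40, adjusted p 0.0227, and -2.35 with length-scaled counts). *Glis3*, a Krüppel-like zinc finger transcription factor, was at 8.38, 12.7 and 18.8 against 138, 105 and 117 CPM (-3.18 ± 0.43, 0.0237). *Adam23*, a catalytically inactive ADAM protein that binds integrins, was at 131, 88.2 and 65.7 against 522, 639.9 and 631 CPM (adjusted p 0.0218, log2 fold change -2.66). In each of the 4 genes every CD90+ FB library lay above every CD81+ FB library. *Tmem176a* and *Tmem176b*, which encode related membrane proteins and overlap at their annotated starts on chromosome 6, were both called. *Tmem176a* was at 86.3, 99.1 and 45.4 against 399, 646 and 446 CPM (log2 fold change -2.69 ± 0.39, adjusted p 0.0321). *Tmem176b* was at 46.7, 20.2 and 40.3 against 274, 438 and 310.1 CPM (-3.27 ± 0.40, 0.0218). Both were higher in 3 of 3 CD90+ FB libraries. The 2 genes are transcribed away from each other. Without replicates 1 or 2 of CD90+ FB none of the 34 genes was called, and without replicate 2 of CD81+ FB or replicate 3 of CD90+ FB none of the 6 was.

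Promoter sequence of the genome build GRCm38, 250 bases ending at or beside an annotated start, was scanned for 4 motifs chosen after the results were seen. The TATA box TATAAA was in 2494 of 32851 promoters (7.59%) and in 2 of the 36 promoters of genes higher in CD81+ FB, those of *Myoc* and *Vegfd*. The 36 belonged to 23 of the 28 genes, some with several neighbouring starts. The TATA box was in 0 of the 9 promoters of the 6 genes higher in CD90+ FB. The CCAAT box, on either strand, was in 33.8% of all promoters, in 10 of the 36 (7 genes) and in 0 of the 9. The AP-1 site TGANTCA was in 6.75%, in 3 (2 genes) and in 0. The palindrome bound by EBF factors was in 0 promoters of either set (0.779% of all), too rare a motif for a count of 0 to tell the sets from other promoters. The promoter of *Myoc* on the plus strand of chromosome 1 from 162638900 to 162639149, holds the TATA box 26 bases before its end and a CCAAT box in reverse, both in capitals: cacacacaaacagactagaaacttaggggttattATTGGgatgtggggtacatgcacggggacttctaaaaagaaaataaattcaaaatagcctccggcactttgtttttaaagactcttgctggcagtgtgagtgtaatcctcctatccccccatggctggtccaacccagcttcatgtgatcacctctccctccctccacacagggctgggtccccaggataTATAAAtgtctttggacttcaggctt. A promoter of *Tmem176a* on the plus strand of chromosome 6 from 48841233 to 48841482, holds none of the 4 and so has no capitals: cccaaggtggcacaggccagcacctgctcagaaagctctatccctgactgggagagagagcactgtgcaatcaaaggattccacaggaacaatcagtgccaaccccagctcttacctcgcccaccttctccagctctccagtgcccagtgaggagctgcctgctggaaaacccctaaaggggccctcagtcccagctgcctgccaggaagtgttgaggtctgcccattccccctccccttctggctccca. One of *Tmem176b* on the minus strand, from 48840989 to 48841238, overlaps it and likewise holds none: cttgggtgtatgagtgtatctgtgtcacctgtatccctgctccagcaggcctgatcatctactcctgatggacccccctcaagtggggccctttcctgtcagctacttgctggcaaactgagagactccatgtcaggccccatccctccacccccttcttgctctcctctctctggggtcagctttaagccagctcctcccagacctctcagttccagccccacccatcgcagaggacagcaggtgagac. No gene was predicted or tested to respond through these motifs.

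A set of 25 genes of adventitial fibroblasts, with the label markers *Cd81* and *Ackr4* among them, lay mostly higher in CD81+ FB. The list was chosen with earlier results of these data known, so its counts are no independent support for the label. All 25 were tested, and 4 were called higher in CD81+ FB (*Efhd1*, *Pcolce2*, *C3* and *Col14a1*), against 0.185% of all genes tested. Of the 25, 23 lay above CD90+ FB in all 3 libraries, against 7.2% of all genes, and the median log2 fold change was 1.90 against 0.06 over all genes tested. *C3*, the complement component and the most abundant of the set per length, was at 7266, 15554 and 8881 against 583, 1590.0 and 707 CPM (log2 fold change 3.46 ± 0.48, adjusted p 0.0261, edgeR quasi-likelihood test with Benjamini-Hochberg adjustment). *Col14a1*, a fibril-associated collagen, was at 3430.2, 4541 and 4264 against 1003, 1269 and 902 CPM (1.94 ± 0.26, 0.0227). *Pi16*, a peptidase inhibitor that marks adventitial fibroblasts, was at 148, 372 and 121 against 10.6, 4.35 and 28.7 CPM, and *Dpp4*, a surface peptidase, at 16.8, 17 and 5.34 against 0.235, 2.41 and 0.576 CPM. Neither was called, but neither overlapped. The hyaluronan synthase gene *Has1* overlapped, because replicate 1 of CD81+ FB was low, at 8.14, 60.9 and 49.9 against 8.61, 11.7 and 18.2 CPM. Only *Has1* and *Procr* of the 25 overlapped. DESeq2 called 14 of the set (3.48% over all) and limma 10 (0.977% over all), and without replicates 1 or 2 of CD90+ FB edgeR called 0.

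Of 8 Wnt ligands tested, edgeR called 0 (3 at an unadjusted p under 0.05, 1 by DESeq2, 1 by limma), at a median of 0.01, and 2 lay above in CD81+ FB and 3 in CD90+ FB (7.2% and 9.78% over all). *Wnt9a* was at 32.7, 44.3 and 17.3 against 1.04, 0.0604 and 0.384 CPM and *Wnt5a*, a noncanonical ligand, at 92.9, 49.9 and 72.1 against 26.4, 28.7 and 42.5 CPM, both without overlap. *Wnt2b*, the most abundant Wnt gene per length, was at 341, 361 and 173 against 521, 547 and 381 CPM, and *Wnt4* at 54.7, 6.64 and 11.2 against 80, 103 and 161 CPM. Both lay above in CD90+ FB. Of 3 R-spondin genes tested, whose products amplify Wnt signals at the stem cell, 0 were called, at a median of 4.33. At an unadjusted p under 0.05 were 3 of them (1553 of 15156 over all), with 2 called by DESeq2 and 0 by limma (3.48% and 0.977% over all). Only *Rspo2* did not overlap, at 24.3, 5.1 and 11.8 against 0, 0.121 and 2.24 CPM. *Rspo1* was at 1.45, 66.7 and 6.95 against 0.847, 2.47 and 0.448 CPM, with replicate 2 of CD81+ FB far above the others, just as *Rspo3* was carried by replicate 3. Among 11 secreted or membrane Wnt antagonists tested, 0 were called (4 at an unadjusted p under 0.05, 2 by DESeq2, 1 by limma) and the median was -0.50. *Sfrp4* was at 174, 235 and 59 against 1.22, 2.23 and 10.4 CPM. The other way lay *Sfrp2*, at 22.6, 18.4 and 8.14 against 78.3, 45.4 and 63.1 CPM, and *Dkk3*, at 240.0, 387 and 439.7 against 566, 785 and 732 CPM. The abundant *Sfrp1* overlapped, at 1412, 1548 and 1216 against 1438, 2491 and 1999.7 CPM.

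Of 13 BMP antagonists tested, 4 lay above in all 3 CD81+ FB libraries and 0 below. Of 12 BMP ligands, 2 lay above and 4 below, where over all genes tested 7.2% lay above and 9.78% below. Yet edgeR called 0 antagonists (5 at an unadjusted p under 0.05, 4 by DESeq2, 1 by limma) and 0 ligands (5 at an unadjusted p under 0.05, 3 by DESeq2, 2 by limma). DESeq2 called 3.48% of all genes tested and limma 0.977%, and 1553 of 15156 had an unadjusted p under 0.05. *Grem1*, which encodes the gremlin that sequesters BMP2 and BMP4, was at 2272, 1677 and 2051 against 184, 508 and 489 CPM (log2 fold change 2.33 ± 0.39, adjusted p 0.0606 in edgeR's quasi-likelihood test with Benjamini-Hochberg adjustment, with all 3 CD81+ FB libraries above). *Chrdl1*, a chordin-like antagonist, was at 49.1, 22 and 37.4 against 5.88, 6.4 and 7.36 CPM, and *Fst*, encoding the activin-binding follistatin, at 1.53, 13.5 and 4.58 against 0.0471, 0.543 and 0 CPM. None of these 3 antagonists overlapped, nor did *Bambi*, a decoy receptor, at 18.5, 15.5 and 15.3 against 3.81, 4.41 and 8.76 CPM. The ligand gene *Bmp5* was at 171, 33.1 and 35.5 against 352, 495 and 389.6 CPM, and *Bmp7* at 31.3, 6.33 and 11.4 against 42.3, 49.3 and 47.2 CPM. *Bmp4*, the most abundant ligand gene per length, was at 1641, 972 and 558 against 1645, 1957 and 1661 CPM. *Inhba*, the activin A subunit, was at 4.59, 3.5 and 7.63 against 64.8, 31.6 and 36.7 CPM. All 4 lay above in CD90+ FB without overlap, with replicate 1 of CD81+ FB nearest to CD90+ FB for the 3 BMP genes. *Gdf6* ran the other way, at 16.5, 5.53 and 18.1 against 0, 0.0604 and 0.256 CPM. The medians were 0.77 for antagonists and -0.20 for ligands.

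Among FGF ligands and receptors, 1 of 12 tested was called (0.224% over all), *Fgf10*, with a median of 0.32. *Fgf18*, which was not called, was at 11.6, 43.5 and 28.4 against 0.0471, 1.45 and 0.64 CPM. *Fgf9* was at 22.2, 19.9 and 54.7 against 8.71, 4.89 and 9.53 CPM and *Fgf2* at 287, 251 and 245 against 153, 137 and 178 CPM. None of the 3 overlapped. The receptors split, with *Fgfr1* at 682, 579 and 703 against 325, 293 and 325 CPM and *Fgfr2* at 259, 179 and 51.6 against 322, 439.9 and 335 CPM. Of 10 EGF family ligands, edgeR called 0 (2 at an unadjusted p under 0.05, 2 by DESeq2, 0 by limma, median -0.18). *Ereg*, the epiregulin gene and the most abundant per length, was at 16.9, 25.1 and 17.2 against 74, 109 and 97 CPM. *Nrg1*, the neuregulin 1 gene, was at 6.61, 0.184 and 0.254 against 6.78, 14.3 and 8.64 CPM. Both lay above in CD90+ FB without overlap. Of 6 PDGF family genes, 0 were called (2 at an unadjusted p under 0.05, 2 by DESeq2, 0 by limma, median 0.82). The ligand gene *Pdgfa* was at 131, 25.8 and 31.3 against 12.3, 10.1 and 11.8 CPM, without overlap.

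TGF-β pathway genes (12 tested, edgeR called 0, 4 at an unadjusted p under 0.05, 0 by DESeq2, 0 by limma) had a median of 0.60. The target gene *Tgfbi* was at 229.8, 316 and 261 against 106, 80.3 and 110.2 CPM. The latent TGF-β binding protein gene *Ltbp1* was at 352, 179 and 128 against 371, 517 and 383 CPM, and neither overlapped. Of 11 Hedgehog pathway genes, 0 were called (3 at an unadjusted p under 0.05, 2 by DESeq2, 1 by limma), at a median of 0.39. The coreceptor gene *Gas1* was at 16, 115 and 66.5 against 0.753, 5.25 and 6.14 CPM, and *Cdon* at 9.67, 24.5 and 27.2 against 2.07, 1.87 and 6.14 CPM. *Hhip*, which encodes a Hedgehog-binding decoy, was at 130.2, 262 and 156 against 69.4, 58.1 and 73.7 CPM. The most abundant member, the receptor gene *Ptch1*, overlapped at 1445, 631 and 493 against 853, 1179 and 1224 CPM. Of the 11 genes, 4 lay above in CD81+ FB and 1 above in CD90+ FB (7.2% and 9.78% over all). Of 11 Notch pathway genes, 0 were called (3 at an unadjusted p under 0.05, 1 by DESeq2, 0 by limma), at a median of -0.65. The target *Heyl* was at 1.53, 12.4 and 16.3 against 42.8, 41.8 and 48.4 CPM, and *Hey1* at 0.725, 0.43 and 5.34 against 26.8, 11.5 and 23.2 CPM. Of 9 IGF genes, 0 were called (4 at an unadjusted p under 0.05, 2 by DESeq2, 2 by limma), at a median of 0.22. *Igf1* was at 938, 926 and 975 against 268, 309 and 641 CPM. The binding protein gene *Igfbp6* was at 78.3, 196 and 133 against 32.5, 33.7 and 9.79 CPM, and *Igfbp5* at 543, 374 and 114 against 992, 1478 and 1319 CPM. None of these 5 Notch and IGF genes overlapped.

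Angiogenic factors held 2 called genes of 16 tested (0.224% over all), *Angptl1* and *Vegfd*, with a median of 0.07. *Vegfd*, a ligand for lymphatic and vascular VEGF receptors, was at 297, 313 and 147 against 26.6, 29.6 and 34 CPM (log2 fold change 3.07 ± 0.38, adjusted p 0.0218, and 2.35 with length-scaled counts, edgeR quasi-likelihood test with Benjamini-Hochberg adjustment). *Vegfc*, its relative, lay the other way at 38.3, 22.1 and 29.4 against 59.6, 44.3 and 46.2 CPM. *Pgf*, the placental growth factor gene, was at 0, 0 and 0.339 against 4.56, 3.2 and 5.89 CPM. *Vegfa* overlapped, at 49.3, 171 and 58 against 71.7, 75.7 and 50.2 CPM. Axon guidance genes had 1 called of 31 tested (0.224% over all) and a median of -0.17. *Sema3d*, a secreted semaphorin, was at 199, 93.2 and 128 against 14, 23.4 and 19 CPM (log2 fold change 2.88 ± 0.42, adjusted p 0.0331, and 1.83 with length-scaled counts). The repellent ligand gene *Slit3*, the most abundant per length, was at 2213, 2583 and 1634 against 643, 754 and 599 CPM without being called. Receptor genes above in CD90+ FB were *Robo1*, at 246, 124 and 111 against 321, 308 and 331 CPM, and *Robo2*, at 216, 87.9 and 143 against 289.8, 282 and 314 CPM. *Plxnd1*, a semaphorin receptor, was at 8.14, 11.9 and 17.6 against 69.6, 52.9 and 81.2 CPM. The membrane ligand gene *Efnb2* was at 16.4, 3.26 and 7.71 against 73.4, 44.7 and 44.7 CPM. Of 12 neurotrophic genes, edgeR called 0 (3 at an unadjusted p under 0.05, 0 by DESeq2, 0 by limma, median 0.06). *Artn*, the artemin gene, was at 0.403, 1.84 and 2.8 against 12.7, 4.83 and 7.93 CPM. *Lsamp*, a neural adhesion gene, was at 216, 193 and 184 against 81.7, 98.6 and 106 CPM.

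For retinoic acid, edgeR called 0 of 16 genes (4 at an unadjusted p under 0.05, 4 by DESeq2, 1 by limma, median -0.27). *Rdh10*, which oxidizes retinol to retinal, was at 30.1, 15.2 and 20.7 against 101, 113 and 99 CPM. *Aldh1a3*, which oxidizes retinal to retinoic acid, was at 13.5, 19.2 and 27.5 against 74.8, 152 and 50.7 CPM. The 2 enzyme genes lay above in CD90+ FB without overlap, whereas *Adh1*, the most abundant per length, overlapped, at 106, 122 and 31.8 against 78.6, 126 and 53.8 CPM. Of 15 prostaglandin genes, 0 were called (5 at an unadjusted p under 0.05, 2 by DESeq2, 1 by limma), at a median of 0.04. *Ptgis*, the prostacyclin synthase gene, was at 25.9, 55.7 and 35.9 against 3.67, 6.16 and 5.31 CPM. *Hpgd*, which inactivates prostaglandins, was at 341, 167 and 193 against 40.3, 93 and 57.1 CPM. *Ptger2*, a prostaglandin receptor gene, was at 7.33, 0.184 and 0.424 against 15.5, 46.7 and 19.8 CPM. None of the 3 overlapped, and *Ptger2* alone of them lay above in CD90+ FB. The inducible synthase gene *Ptgs2* overlapped, at 11, 42.7 and 11.8 against 63.5, 38.9 and 89.9 CPM.

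No CC chemokine of 10 tested was called (1 at an unadjusted p under 0.05, 0 by DESeq2, 0 by limma, median -0.29). None separated the populations. *Ccl11*, the eotaxin gene and the most abundant, was at 382, 461 and 669 against 173, 459 and 312 CPM. Of 13 CXC and CX3C chemokines 0 were called (3 at an unadjusted p under 0.05, 1 by DESeq2, 0 by limma). Of these, 6 lay above in CD90+ FB and 1, *Cxcl10*, above in CD81+ FB (9.78% and 7.2% over all), at a median of -1.20. *Cxcl12* was at 452, 394 and 205 against 477, 664 and 609 CPM and *Cxcl10* at 63.6, 144 and 29.8 against 12.1, 22.9 and 13.6 CPM. Of 5 scavenging receptors, the label marker *Ackr4* included, 0 were called (2 at an unadjusted p under 0.05, 1 by DESeq2, 1 by limma, median 0.77). *Ackr3* also lay above in CD81+ FB but only narrowly, at 254, 217 and 149.5 against 93.4, 129 and 141 CPM (log2 fold change 0.77). Of 18 cytokines and growth factors for leukocytes, 0 were called (5 at an unadjusted p under 0.05, 2 by DESeq2, 2 by limma), at a median of -0.25. *Il33*, an alarmin gene, was at 242, 197 and 207 against 12.7, 46.9 and 31.5 CPM. *Tnfsf13b*, which encodes the B cell survival factor BAFF, was at 29.3, 49.6 and 15.9 against 206, 182 and 141 CPM. *Il7* was at 0.564, 1.72 and 4.24 against 9.22, 14.4 and 11 CPM and *Il15* at 2.9, 3.44 and 7.12 against 12.2, 9.96 and 17.4 CPM. None of these 4 overlapped. Of 25 cytokine receptors, 0 were called (3 at an unadjusted p under 0.05, 1 by DESeq2, 1 by limma), at a median of -0.25. *Il1r1* was at 90.5, 32.1 and 21.3 against 133, 188 and 172 CPM. *Il6st*, which encodes gp130, was at 2005, 1629.9 and 1577 against 976, 1129 and 913 CPM. Complement genes had 1 called of 22 tested (0.224% over all), *C3*, and a median of 0.62. The terminal component gene *C7* was at 138, 97.4 and 29.8 against 2.59, 1.99 and 8.12 CPM, and the inhibitor gene *Serping1* at 3584, 3506 and 2670.4 against 1512, 2141 and 1481 CPM, without overlap.

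Among 38 collagen genes tested, 2 were called (0.224% over all, median 0.21). *Col6a3*, a chain of microfibrillar collagen VI, was at 3766, 3661 and 4828 against 729.7, 874 and 908 CPM (log2 fold change 2.28 ± 0.24, adjusted p 0.0142, edgeR quasi-likelihood test with Benjamini-Hochberg adjustment). *Col14a1* was the other. The chains *Col6a4* and *Col6a5* lay the other way, with *Col6a5* at 0.886, 0.0615 and 0.424 against 8.99, 33.4 and 25.6 CPM. So did the fibril-associated *Col12a1*, at 960.3, 221 and 416 against 2161, 2245 and 2229 CPM. *Col3a1*, the most abundant per length, overlapped, at 12917, 9830.4 and 19986 against 11666, 8365 and 11067 CPM. Of 14 small leucine-rich proteoglycans, edgeR called 0 (5 at an unadjusted p under 0.05, 2 by DESeq2, 1 by limma), at a median of 0.48. *Dcn*, the decorin gene, was at 20848, 14772 and 9754 against 4811, 7487 and 6955 CPM, without overlap. Of 25 matricellular genes 0 were called (14 at an unadjusted p under 0.05, 4 by DESeq2, 5 by limma, median 0.50). Over all genes tested, 1553 of 15156 were at that p, and DESeq2 and limma called 3.48% and 0.977%. Of the 25 matricellular genes, 10 lay above in CD81+ FB and 5 above in CD90+ FB (7.2% and 9.78% over all). *Cilp*, a TGF-β binding matrix protein gene, was at 527, 1158 and 1127 against 9.98, 29.1 and 94.7 CPM. *Tnc*, the tenascin C gene, was at 248, 129.7 and 243 against 657, 1333 and 828 CPM. *Postn*, the periostin gene, was at 4872, 2057 and 2868 against 7508, 8020.3 and 8326 CPM and *Sparc*, the most abundant, at 17550.5, 12360.2 and 26447 against 11146, 7713 and 11859 CPM. None of the 4 overlapped.

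Of 25 elastic fibre genes, edgeR called 0 (5 at an unadjusted p under 0.05, 0 by DESeq2, 0 by limma), at a median of 0.16. *Fbn1*, fibrillin 1, was at 10165, 8293 and 8349 against 7263, 4071 and 4091 CPM. *Mfap4*, the most abundant per length, was at 1547, 1633 and 2964 against 1178, 1053 and 1216 CPM. Neither overlapped, whereas *Eln*, elastin itself, did, at 2498, 1569 and 2282 against 2704, 1360.4 and 1808 CPM. Of 25 hyaluronan and proteoglycan genes, 0 were called (9 at an unadjusted p under 0.05, 3 by DESeq2, 1 by limma), at a median of 0.20. *Vcan*, versican, was at 2167, 844 and 1225 against 3129, 2844 and 2862 CPM. Of 25 basement membrane genes, 0 were called (10 at an unadjusted p under 0.05, 4 by DESeq2, 2 by limma), at a median of -0.12, and 5 lay above in CD81+ FB and 7 in CD90+ FB (7.2% and 9.78% over all). The laminin chain *Lama1* was at 0.886, 0.369 and 1.44 against 22, 23.1 and 29.6 CPM, and the linker *Nid2* at 1.85, 3.63 and 6.1 against 25.3, 35.2 and 32.4 CPM. *Nid1* was at 4495, 3127 and 2271 against 1003, 1084 and 1157 CPM, and the laminin chain *Lamb2* at 219, 279.7 and 274 against 89.6, 85.7 and 56.1 CPM. The 2 nidogen genes lay on opposite sides, each without overlap. Matrix proteases and inhibitors had 3 called of 41 tested (0.224% over all), *Pcolce2*, *Prss23* and *Adamts5*, with a median of 0.21. *Prss23*, a secreted serine protease, was at 379, 618 and 529.6 against 49, 80.7 and 92.4 CPM (log2 fold change 2.78 ± 0.36, adjusted p 0.0226, edgeR quasi-likelihood test with Benjamini-Hochberg adjustment). *Adamts5*, which cleaves versican and aggrecan, was at 523, 502 and 329 against 104, 80.8 and 122 CPM (2.14 ± 0.31, 0.0331). Both were higher in 3 of 3 libraries.

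**Figure D3:**
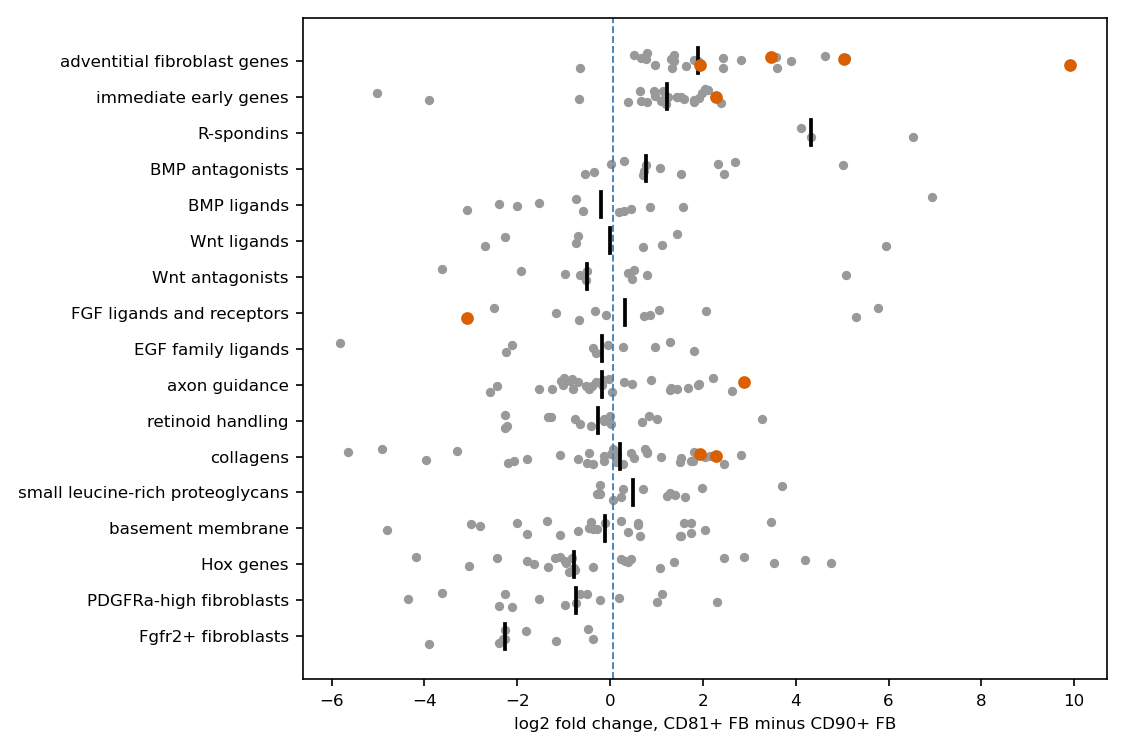
Log2 fold change (CD81+ FB minus CD90+ FB) of each tested member of 17 gene lists, with called genes in orange, list medians as black bars and the median of all genes tested as a dashed line. Most adventitial and immediate early genes lie to the right of the dashed line and all markers of Fgfr2+ FB to its left.

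Of 59 mesenchymal transcription factors tested, 2 were called (0.224% over all), *Ebf1* and *Foxp2*, and the median was 0.11. *Foxp2*, a forkhead repressor, was at 235, 295 and 339 against 47.9, 44.5 and 62.9 CPM (log2 fold change 2.48 ± 0.31, adjusted p 0.0218, and 1.88 with length-scaled counts, edgeR quasi-likelihood test with Benjamini-Hochberg adjustment, higher in 3 of 3 libraries). Factors that were not called but did not overlap included *Osr2*, at 32.3, 58.9 and 28.3 against 0.0471, 0.543 and 0 CPM. *Prrx1* was at 91.5, 37.6 and 20.1 against 3.62, 1.45 and 9.15 CPM and *Ebf3* at 3.87, 62 and 59.5 against 1.84, 3.08 and 2.88 CPM. Above in CD90+ FB without overlap were *Runx2*, at 15.8, 4.18 and 12.3 against 77.1, 103 and 98.4 CPM, and *Tbx2*, at 1.37, 0.123 and 0.678 against 27.3, 23.7 and 21.5 CPM. *Foxf2*, a forkhead factor of gut mesenchyme, was at 9.83, 17.8 and 7.29 against 54.2, 51.7 and 45.5 CPM. *Zeb2*, the most abundant per length, was at 1962, 1193 and 1177 against 2006, 2171 and 2548 CPM, without overlap. Hox genes had 0 called of 27 tested (6 at an unadjusted p under 0.05, 4 by DESeq2, 0 by limma) and a median of -0.77. *Hoxb3* was at 128, 44.9 and 38.4 against 4.71, 8.27 and 15.5 CPM. *Hoxa13*, of the posterior group, was at 7.49, 3.38 and 16.4 against 44.9, 54.6 and 47.8 CPM, so the 2 lay on opposite sides. Lipid genes had 0 called of 28 (8 at an unadjusted p under 0.05, 4 by DESeq2, 1 by limma, median 0.66), while 10 lay above in CD81+ FB and 1 above in CD90+ FB (7.2% and 9.78% over all). *Pparg*, a marker taken for CD90+ FB, overlapped, at 24.5, 44.9 and 14.1 against 44.3, 84.9 and 37.2 CPM.

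Adhesion molecules had 1 called of 39 tested (0.224% over all), *Lrrn4cl*, at 198, 261 and 140.5 against 26.2, 18.3 and 18.4 CPM (log2 fold change 3.25 ± 0.38, adjusted p 0.0193, edgeR quasi-likelihood test with Benjamini-Hochberg adjustment), and a median of -0.15. *Vcam1*, a ligand for integrin α4β1, and *Itga4*, the α4 chain, both lay above in CD90+ FB. *Vcam1* was at 40.4, 118 and 132 against 254, 336 and 280.4 CPM, and *Itga4* at 60.4, 47.8 and 44 against 99.7, 115 and 147 CPM. *Cadm1*, an immunoglobulin-like adhesion molecule, was at 27.6, 111 and 204 against 5.93, 9.23 and 6.52 CPM. None of the 4 overlapped. Ion channels and neurotransmitter receptors had 0 called of 49 tested (13 at an unadjusted p under 0.05, 6 by DESeq2, 2 by limma) and a median of -0.16. *Npr1*, the receptor for atrial natriuretic peptide, was at 13.1, 73 and 27.9 against 1.6, 3.26 and 1.6 CPM, and the mechanosensitive channel gene *Piezo2* at 39.6, 41.6 and 80.2 against 11.5, 10.2 and 14.4 CPM. *Vipr2*, a receptor for vasoactive intestinal peptide, was at 209, 107 and 120.1 against 244, 325 and 232 CPM. None of the 3 overlapped. The most abundant per length, *Calcrl*, which encodes a receptor for calcitonin gene-related peptide, overlapped at 674, 297 and 222 against 303, 619.9 and 598 CPM.

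Immediate early genes differed in part. Of 26 tested, 1 was called (0.224% over all genes tested). In all 3 libraries 15 lay above CD90+ FB and 2 below (7.2% and 9.78% over all), and the median was 1.23. Their summed level was 11521, 15958 and 10675 CPM in CD81+ FB and 3124, 4145 and 5415 CPM in CD90+ FB. *Fosb*, a component of AP-1, was at 1135, 1080.5 and 767 against 187, 166 and 262 CPM (log2 fold change 2.27 ± 0.30, adjusted p 0.0227, edgeR quasi-likelihood test with Benjamini-Hochberg adjustment). *Egr1*, a zinc finger factor and the most abundant per length, was at 4847, 6747 and 4970.2 against 1260.0, 1752 and 2461 CPM. Whether the difference arose in the tissue or during isolation of the cells was not tested. Heat shock genes had 0 called of 15 (3 at an unadjusted p under 0.05, 0 by DESeq2, 0 by limma, median 0.27). *Hspa5* was the most abundant per length, and the genes summed to 2959.8, 4885 and 4405 CPM in CD81+ FB and 2702, 2752 and 3477 CPM in CD90+ FB. Of 35 interferon-induced genes 0 were called (7 at an unadjusted p under 0.05, 3 by DESeq2, 0 by limma), 0 lay above in CD81+ FB and 9 lay above in CD90+ FB (7.2% and 9.78% over all), with a median of -0.21. *Oasl2* was at 38.8, 114 and 69.3 against 159.5, 182 and 157 CPM, and *Ifitm3*, the most abundant, overlapped at 1269, 979 and 347 against 517, 576 and 543 CPM. For antigen presentation, 0 of 22 genes were called (3 at an unadjusted p under 0.05, 1 by DESeq2, 0 by limma, median -0.44). The immunoproteasome subunit gene *Psmb9* was at 0.564, 0.246 and 3.22 against 21.9, 12.3 and 17.2 CPM. Of 15 proliferation genes edgeR called 0 (0 at an unadjusted p under 0.05, 0 by DESeq2, 0 by limma, median 0.07). Of 77 ribosomal protein genes it called 0 (3 at an unadjusted p under 0.05, 0 by DESeq2, 0 by limma, median 0.10), and of 13 mitochondrially encoded genes 0 (0 at an unadjusted p under 0.05, 0 by DESeq2, 0 by limma, median -0.30). Mitochondrially encoded genes summed to 30001, 21541 and 15166 CPM in CD81+ FB and 17027, 29361 and 31405 CPM in CD90+ FB, and the populations overlapped.

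Markers of other cells were examined in each library. Endothelial genes summed to 468, 523 and 401 CPM in CD81+ FB and 117, 128 and 165 CPM in CD90+ FB, and *Tek* was the only one called of 12 tested (0.224% over all, median 0.20). Without *Tek* the sums overlapped, at 134, 199.9 and 130.3 against 95.4, 105.6 and 139.7 CPM. *Ly6c1*, the most abundant per length, also lay above in CD81+ FB without overlap, at 55.4, 149.7 and 49.8 against 29.6, 40.9 and 31.6 CPM, and 2 others of the list lay above in CD90+ FB (7.2% of all genes lay above in CD81+ FB and 9.78% in CD90+ FB). *Cdh5*, *Cldn5* and *Emcn* had 6 counts in too few libraries for a test. *Cdh5* was at 0.0806, 0.184 and 0 against 0.0471, 0 and 7.48 CPM and *Emcn* at 7.66, 0 and 0 against 0.0471, 0.181 and 0.96 CPM, so single libraries held these defining markers, and their part in the level of *Tek* was not tested. Leukocyte genes had 9 of 20 tested and 0 called by edgeR (2 at an unadjusted p under 0.05, 1 by DESeq2, 0 by limma) and a median of -1.78. They summed to 14.3, 21.2 and 33.2 CPM in CD81+ FB and 25.8, 95.3 and 77.9 CPM in CD90+ FB, with *Igkc*, the immunoglobulin κ constant gene, at 0.484, 0.0615 and 0.0848 against 1.22, 51.1 and 47.1 CPM and the defining markers *Cd3e*, *Cd79a* and *Adgre1* not tested. Epithelial genes had 3 of 16 tested and 0 called by edgeR (0 at an unadjusted p under 0.05, 0 by DESeq2, 0 by limma) and a median of 0.20. Their summed levels were 29.3, 12.5 and 30.3 CPM in CD81+ FB and 24.2, 17.6 and 24.4 CPM in CD90+ FB, chiefly *Slc26a3* per length, with *Krt8*, *Aqp8* and *Tff3* at 0 in all 6 libraries. Genes of glia and neurons had 4 of 12 tested and 0 called by edgeR (0 at an unadjusted p under 0.05, 0 by DESeq2, 0 by limma) and a median of 0.30. They summed to 7.17, 14.3 and 17.7 CPM in CD81+ FB and 13.8, 7.24 and 11.3 CPM in CD90+ FB, with *L1cam* the most abundant and *Gfap* at 0. Mesothelial genes had 5 of 11 tested and 0 called by edgeR (1 at an unadjusted p under 0.05, 1 by DESeq2, 0 by limma) and a median of 0.85. Their summed levels were 19.5, 97.2 and 17.1 CPM in CD81+ FB and 19.7, 17.7 and 13.3 CPM in CD90+ FB, with *Cldn15* the most abundant per length, and without *Rspo1* they were 18.1, 30.5 and 10.2 against 18.8, 15.3 and 12.9 CPM. Adipocyte genes had 5 of 9 tested and 0 called by edgeR (0 at an unadjusted p under 0.05, 0 by DESeq2, 0 by limma) and a median of 0.03. They summed to 26.1, 7.81 and 18.4 CPM in CD81+ FB and 13.1, 8.87 and 12 CPM in CD90+ FB, with *Adrb3* the most abundant and *Adipoq* and *Lep* at 0. Of these lists, only the endothelial one held a called gene.

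Contractile cells and the other fibroblasts were examined in the same way. Pericyte genes had 11 of 14 tested and 0 called by edgeR (2 at an unadjusted p under 0.05, 1 by DESeq2, 0 by limma) and a median of -0.60. Their summed levels were 287, 270.4 and 191 CPM in CD81+ FB and 184, 302 and 366 CPM in CD90+ FB, with *Rgs5*, the most abundant per length, at 63.1, 29.8 and 23.6 against 70.4, 141 and 192 CPM. Smooth muscle genes had 16 of 16 tested and 0 called by edgeR (5 at an unadjusted p under 0.05, 2 by DESeq2, 0 by limma) and a median of -0.66. They summed to 1979.7, 1839 and 1639.7 CPM in CD81+ FB and 2093, 2356 and 2221 CPM in CD90+ FB, with *Cald1* the most abundant and *Acta2*, α-smooth muscle actin, at 30.2, 13.1 and 9.83 against 72.7, 82.5 and 70.9 CPM. Neither *Rgs5* nor *Acta2* overlapped, both being above in CD90+ FB with 3 pericyte and 5 smooth muscle genes in all, whereas 1 and 2 lay above in CD81+ FB (9.78% and 7.2% over all). Genes of interstitial cells of Cajal had 5 of 7 tested and 0 called by edgeR (0 at an unadjusted p under 0.05, 0 by DESeq2, 0 by limma) and a median of 0.78. Their summed levels were 381, 86.4 and 108 CPM in CD81+ FB and 252, 296 and 232 CPM in CD90+ FB, with *Cd44* the most abundant per length, and *Kit* was not tested. Markers of PDGFRα hi FB had 15 of 15 tested and 0 called by edgeR (8 at an unadjusted p under 0.05, 3 by DESeq2, 1 by limma) and a median of -0.73. They summed to 879, 645 and 760.0 CPM in CD81+ FB and 1194, 1624 and 1512 CPM in CD90+ FB, with *Dkk3* the most abundant and the transcription factor gene *Foxl1* at 1.13, 0.123 and 0.0848 against 6.96, 11.9 and 8.25 CPM. Markers of Fgfr2+ FB had 9 of 10 tested and 0 called by edgeR (5 at an unadjusted p under 0.05, 2 by DESeq2, 2 by limma) and a median of -2.26. Their summed levels were 3743, 752 and 479.9 CPM in CD81+ FB and 4208, 10875 and 4961 CPM in CD90+ FB, with *Adamdec1* the most abundant per length. Both sums lay above in CD90+ FB in all 3 libraries. Of single markers of PDGFRα hi FB, 7 lay above in CD90+ FB and 2 above in CD81+ FB (9.78% and 7.2% over all). For Fgfr2+ FB replicate 1 of CD81+ FB came close to CD90+ FB. Of 4 Y-linked genes edgeR called 0 (0 at an unadjusted p under 0.05, 0 by DESeq2, 0 by limma, median 0.74), and *Kdm5d* and *Uty* were counted in all 6 libraries.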

How the data were processed

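RNA of 6 libraries was analysed, 3 of colonic CD81+ FB and 3 of colonic CD90+ FB. The sample labels give 3 individual mice as the source and do not say which library came from which mouse. Libraries of the populations may therefore share mice. Per the labels, the authors trimmed reads with Trim Galore 0.4.0, checked them with FastQC 0.11.2 and counted them with kallisto 0.42.5. The deposited values are estimated counts per transcript and TPM, and the transcript set is not stated. Of 98492 transcripts, 97116 were matched to 32342 genes of GENCODE M21 (GRCm38), and the counts of all transcripts of a gene were added up and rounded. Depth was 16181861, 18710840 and 13102446 estimated counts in CD81+ FB and 19096945, 15840424 and 14456220 in CD90+ FB, and 15520 to 17477 genes had a count. Ratios against libraries at 0 used a floor of 3 counts per library.

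A gene was tested when 3 or more of the 6 libraries held 6 counts or more. Tests were run with edgeR 4.0.16 in R 4.3.3, by the quasi-likelihood test with TMM normalization and Benjamini-Hochberg adjustment over all genes tested. The procedure was tested on simulated data. No covariate was fitted, since libraries of the same number were not known to come from the same mouse and their deviations from the population means correlated at -0.064, 0.018 and -0.006. With 3 libraries against 3, an exact rank test cannot give a p under 0.1. CPM were scaled by TMM across the 30 libraries. Levels of different genes were compared only per length, as TPM rescaled over matched genes, and no gene named as called shared 50% or more of its stretches of 31 bases with other genes.

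Genes named were those of sorting proteins, the 12 of largest fold change called in each direction with a mean of at least 10 CPM and no overlap, the other called genes, and members of 56 gene lists. From a list these were the called member of largest fold change, in some lists the most abundant, and others for their role or values. Many of these others did not overlap between the populations, so they do not represent their lists. The 6 libraries and the lists were chosen with earlier results of these data known. Alternatives were DESeq2 1.42.0, RLE and upper-quartile scaling, 2 other filters on low counts, length-scaled counts, single transcripts, a replicate block, joint models of 15 and of 30 libraries, lower fold thresholds, and fits that omitted single libraries. Limma 3.58.1 with library weights was added after the data had been seen. Single-cell data and libraries of other populations were not analysed here beyond principal components, joint models and described levels. Results that need items withheld for evaluation are not reported here.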

Additional observations from a re-analysis of the deposited data

How the results depend on the processing

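The number of genes called, 34 (28 higher in CD81+ FB and 6 higher in CD90+ FB), was kept by RLE scaling and by log2 fold thresholds of 1 and of none. It was 527 with DESeq2 (289 and 238), 54 with upper-quartile scaling (33 and 21), 121 with no filter on low counts (86 and 35, 20088 genes tested), 59 with 10 counts required in every library of 1 population (45 and 14, 13608 tested), 15 with length-scaled TPM counts (13 and 2), 42 with a replicate block (36 and 6), 109 in a model of the 15 colonic libraries (53 and 56), 110 in a model of all 30 (50 and 60) and 148 with limma and library weights (113 and 35), the last chosen after seeing the data. Single transcripts gave 0 calls in edgeR (35590 tested, 2181 at an unadjusted p under 0.05). Leaving out 1 library gave 0 to 224 called, 0 to 117 higher in CD81+ FB and 0 to 107 higher in CD90+ FB, the highest without replicate 1 of CD81+ FB and the lowest without replicate 1 or 2 of CD90+ FB. The cause was not tested in any of these. Of the 34 genes, 34 were called again by DESeq2, 33 by limma, 31 with the block, 32 and 24 in the joint models, 15 with length-scaled counts and 34, 7, 16, 0, 0 and 5 without each library in turn, CD81+ FB first.

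The first principal component held 42.0% of the variance with the 500 most variable genes and 21.2% with genes scaled to unit variance. With the 500 genes, CD81+ FB lay on it at -39.9, -58.4 and -40.8 and CD90+ FB at -6.1, -5.2 and -7.3. With scaled genes, CD81+ FB lay at -173, -29.8 and -6.17 and CD90+ FB at 16.5, 11.0 and 5.65. The coefficient of variation of the fit, 0.714, was 0.582 to 0.775 without single libraries.

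Among the 34, length-scaled counts moved the fold by over 1.5 times for *Tek*, *Vegfd*, *Sema3d* and *Fgf10*, for *Pcolce2* (log2 fold change 5.68), *Nhsl1* (3.29), *Foxp2* (1.88) and *Ccnd2* (1.38). Limma did so for *Myoc* (9.3) and *Angptl1* (8.24). Of 139 named genes that were not called, 73 were called by at least 1 alternative. Of 2768 fold changes under alternatives, 29 in 12 genes changed direction, none of a gene called before or after, and 19 of these were without 1 library. By log2 fold change, upper-quartile scaling gave -0.24 for *Adh1*, -0.087 for *Eln*, -0.029 for *L1cam* and -0.17 for *Pecam1*. Length-scaled counts gave -0.035 for *Adh1*. The block gave -0.128 for *Adh1*, -1.35 for *Fgfr3* and -0.043 for *L1cam*. Limma gave -0.44 for *Adh1* and -0.41 for *Cldn15*. Without single libraries, log2 fold changes of genes with a change of direction ran from -0.335 to 0.424 for *Adh1*, -0.0172 to 1.64 for *Adrb3*, -1.25 to 0.037 for *Cd44*, -0.417 to 0.765 for *Cldn15*, -0.0948 to 0.406 for *Eln*, -3.12 to 6.35 for *Fgfr3*, -0.698 to 0.134 for *Itgb1*, -0.0258 to 1.34 for *Kdm5d*, -0.396 to 0.525 for *L1cam*, -1.27 to 0.153 for *Mcam*, -0.148 to 0.161 for *Pecam1* and -0.309 to 0.822 for *Vegfa*. The cause was not tested.

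With 3 libraries per population and CD81+ FB that differ among themselves, genes that were not called were not shown to be equal, and which genes were called depended on single libraries of either population. Fewer cells and less RNA per cell cannot be told apart, nor can RNA of other admixed FB in replicate 1 of CD81+ FB and expression of the same genes by its CD81+ FB. Estimated counts of genes with shared sequence depend on how kallisto divided the reads. Depth limited genes near the floor, such as *Myoc* and *Efhd1* in CD90+ FB, to a bound or a wide interval. Protein was not analysed here.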

Other observations

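Levels in the 8 other populations are given as means of 3 libraries with no test. The called genes were picked by a difference between CD81+ FB and CD90+ FB, so the counts below follow in part from that choice. The same counts were not made over all genes tested. Of the 28 genes called higher in CD81+ FB, 22 had their highest mean of the 10 populations in colonic CD81+ FB, 3 in colonic pericytes, 2 in pericytes of the small intestine and 1 in PDGFRα hi FB of the small intestine. A higher mean than in colonic CD90+ FB was found for 26 in CD34+ FB of the small intestine, 15 in colonic Fgfr2+ FB and 9 in colonic PDGFRα hi FB. *Ackr4* was at 417 CPM and *C3* at 8939.8 CPM in CD34+ FB of the small intestine. *Myoc* and *Efhd1* were at 0.423 and 0.951 CPM there. *Ebf1* was at 1248 CPM in pericytes of the small intestine and 1184 CPM in those of the colon. Of the 6 genes called higher in CD90+ FB, 2 had their highest mean in colonic CD90+ FB, 3 in Fgfr2+ FB of the small intestine and 1 in colonic Fgfr2+ FB. Each of these 6 genes had a higher mean in Fgfr2+ FB of the colon than in colonic CD81+ FB. PDGFRα hi FB of the colon likewise exceeded colonic CD81+ FB for all 6. For CD34+ FB of the small intestine this held for 4 of the 6. The 6 genes were thus not particular to CD90+ FB. In colonic Fgfr2+ FB, *Fgf10* was at 161 CPM, *Adam23* at 565 CPM and *Myo16* at 7.64 CPM.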
